A study of Homo sapiens with 32 samples.

Results

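The counts assigned to 4 genes, FOXA1, TTC6, HOXB13 and FOLH1, were followed across all 32 RNA-seq libraries of the series. They were chosen by name as the luminal lineage factors FOXA1 and HOXB13, the gene that starts beside FOXA1 on the other strand (TTC6), and the gene of prostate-specific membrane antigen, PSMA (FOLH1). They are 4 of 57773 genes in the table, of which 23861 had at least 1 count and 3985 passed the expression filter. FOXA1, HOXB13 and FOLH1 passed that filter and TTC6 did not, so 3 of the 4 members could be tested.

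The cells were LNCaP, an androgen-dependent prostate cancer line grown from a lymph node metastasis. A parental line without a construct was set beside lines transduced with a neutral, repressive or activating MACC (Modifier of ARE Containing Chromatin), in which a domain that binds DNA is fused with ERT2, a mutant estrogen receptor domain that tamoxifen brings into the nucleus. The neutral MACC carries the 3X FLAG tag alone, the repressive MACC adds KRAB and the activating MACC adds VP64. Each line received 2.5 µM tamoxifen or vehicle (ethanol) for 48 h, with 4 biological replicates in each of the 8 groups. The construct lines had been made by lentiviral transduction with a PGK backbone and selected with blasticidin, and the parental line had no such selection, so that any difference of a construct line from the parental line under vehicle cannot be told apart from the effect of transduction and selection.

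FOXA1 is a pioneer factor of the forkhead family that opens chromatin at enhancers and gives other factors access to them in luminal prostate cells. HOXB13 is a homeobox factor of the posterior prostate lineage that binds at many prostate enhancers and remains on in most prostate adenocarcinomas. FOLH1 encodes PSMA, a cell surface glutamate carboxypeptidase that acts on folylpolyglutamates and is the target of prostate cancer imaging agents. TTC6 encodes a protein with tetratricopeptide repeats and lies head to head with FOXA1.

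The depth and the strand pattern of the table bound every value. Library totals ran from 454982 to 1164808 counts (median 669922). Genes with an exon opposite one of another gene took 80.9% of the counts on annotated genes. MT-ND6 is read from the mitochondrial strand opposite to the other 12 protein genes, and averaged 4468 counts per library where the median of those 12 was 156. The library kit marks strand, and the strand setting used for counting is not given in the sources used here. This pattern is that of a table in which reads were assigned to the strand opposite to their transcript. In that case the counts of FOXA1, HOXB13 and FOLH1 may be, in part or in whole, reads from the other strand of these genes. That was not tested. A value below is therefore the count assigned to a gene's feature in this table, and a gene that rose or fell is one whose assigned count did. The labels fitted the construct sequences, since ESR1, which supplies ERT2, had 0 to 2 counts in the parental libraries and 66 to 159 in the construct lines, and ZNF10, the usual source of such KRAB domains, had 11 to 20 counts in the repressive line and at most 1 elsewhere. Of 10 luminal markers, 7 had a mean above 3 counts. The summed level of all 10 was 727 to 1672 CPM (counts per 1000000 of TMM-scaled library size) outside the activating tamoxifen group and 8683 to 10990 in it. This sum is not split by gene here. Of 6 basal markers 1 passed the filter, with TP63 at 0 in every library. The summed level of the basal list was 78.6 to 99.2 CPM under tamoxifen in the activating line and at most 8.56 elsewhere. The summed neuroendocrine list was at 3.67 to 12.9 CPM in that group and 14.5 to 39.5 under vehicle in the same line, the mesenchymal list at 29.4 to 51.7 and 48.0 to 97.0, and the immune list at 16.5 to 32.4 and 6.32 to 21.0. The part of these marker shifts in the results for the activating line was not tested. In bulk RNA, fewer cells of a type and less RNA per cell cannot be told apart.

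FOXA1 lies at chr14:38058757-38065264 (GRCh37, minus strand) and TTC6 at chr14:38064834-38510647 (plus strand). Their exons share 16 bp in the annotation, which is 0.36% of the exonic length of FOXA1 and 0.19% of that of TTC6. In the RefSeq table of promoter windows (GRCh38.p14) the annotated starts of these genes have 379 bases between them and face away from each other, so that the 250 bases before each start share 121 bases. They are shown because this stretch is the only sequence that belongs to a promoter window of both members. Capitals mark the shared bases, which read as reverse complements, and each line runs 5′ to 3′ towards its own gene.
FOXA1 (chr14:37595250-37595499, minus strand): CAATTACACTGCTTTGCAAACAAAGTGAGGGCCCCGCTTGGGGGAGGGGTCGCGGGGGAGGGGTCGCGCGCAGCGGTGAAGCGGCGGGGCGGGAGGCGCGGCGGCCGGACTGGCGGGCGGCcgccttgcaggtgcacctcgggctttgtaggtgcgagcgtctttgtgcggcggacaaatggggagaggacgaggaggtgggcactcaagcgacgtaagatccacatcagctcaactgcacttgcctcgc
TTC6 (chr14:37595379-37595628, plus strand): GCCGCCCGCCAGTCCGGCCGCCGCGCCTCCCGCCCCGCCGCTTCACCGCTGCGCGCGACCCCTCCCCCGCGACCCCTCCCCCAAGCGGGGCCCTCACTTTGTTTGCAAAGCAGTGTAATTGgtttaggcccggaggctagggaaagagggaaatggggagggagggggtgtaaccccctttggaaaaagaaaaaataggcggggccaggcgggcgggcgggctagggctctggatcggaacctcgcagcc
The capitals hold 1 match to the forkhead letters TGTTTGC, in the TTC6 line, read as GCAAACA in the FOXA1 line. That motif, on either strand, was in 3.89% of the 35116 windows of 300 bases in the table. No match was found in either window to the forkhead letters TGTTTAC (3.42% of windows), to the androgen response element (ARE) half-site TGTTCT (14.8%), to the paired half-sites AGAACA and TGTTCT with 3 bases between them (0.00285%, where a match to the pair is also a match to the half-site) or to CCAATAAA (0.934%), a sequence bound by HOXB13. Windows were found for 2 of the 4 members. HOXB13 lies at chr17:46802125-46806112 (GRCh37, minus strand) and FOLH1 at chr11:49166644-49230190 (minus strand), and the exons of neither overlap an exon on the other strand.

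Per kilobase of exon, HOXB13 held the most counts of the 4 members and TTC6 the fewest. The mean over the 32 libraries was 18.2 CPM per kb for HOXB13, 5.36 for FOXA1, 2.95 for FOLH1 and 0.325 for TTC6. In estimated counts, HOXB13 had 14 to 72 per library (median 35), FOXA1 6 to 34 (median 15), FOLH1 2 to 18 (median 10) and TTC6 0 to 6 (median 1.5). The spread among the 4 replicates of a group was close to counting noise for most groups. The variance divided by that expected from counting had a median over the 8 groups of 0.550 for FOXA1, 0.905 for FOLH1 and 1.07 for HOXB13, with a highest value of 5.59, for HOXB13 in the neutral vehicle group. The replicates are called biological and are not described further, so the p-values measure the spread between these libraries.

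**Figure D1:**
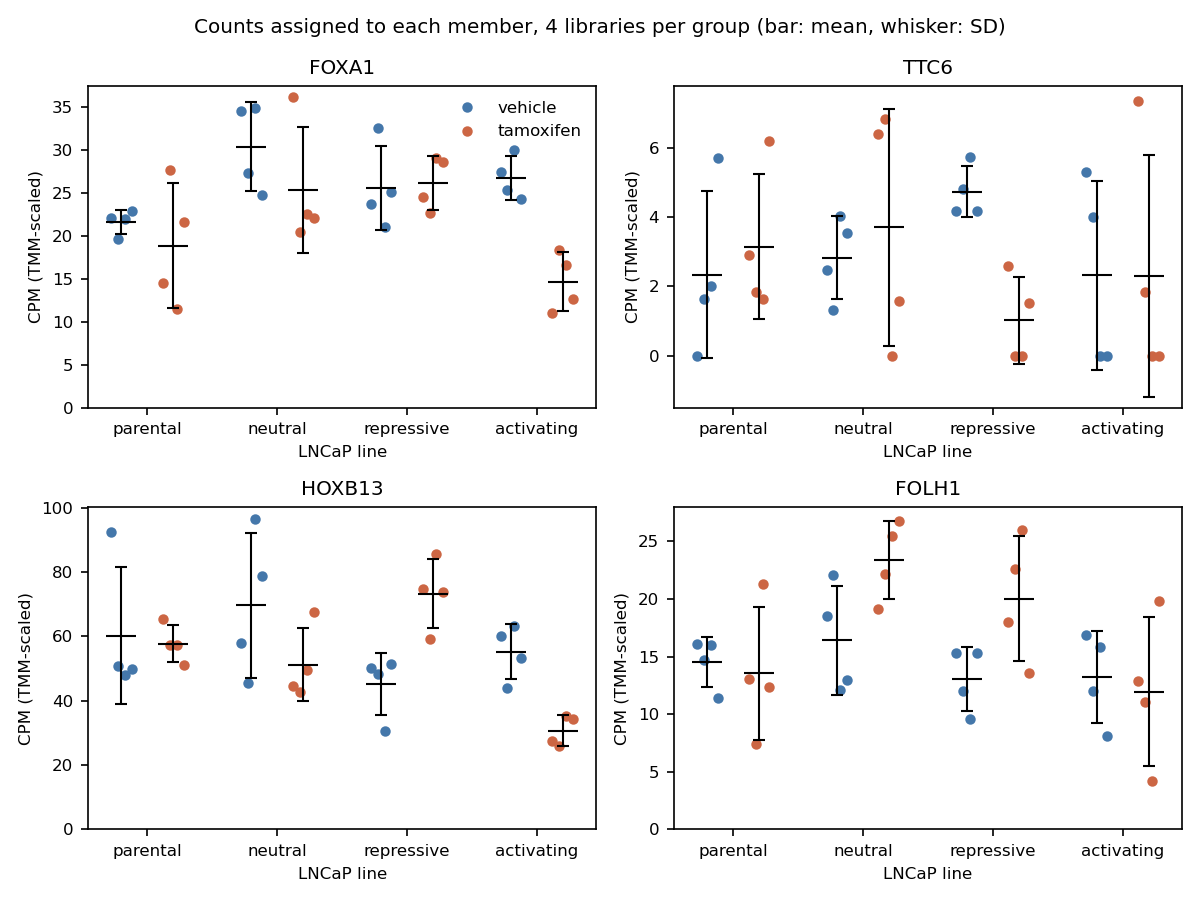
TMM-scaled CPM assigned to FOXA1, TTC6, HOXB13 and FOLH1 in each of the 32 libraries, by line (x axis) and treatment (colour); horizontal bars are means and whiskers SD of 4 libraries. Under tamoxifen in the activating line, the 4 HOXB13 values lay between 25.7 and 35.2 CPM, below the 4 vehicle values.

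HOXB13 moved in opposite directions under the repressive and the activating MACC. In the repressive line its level was 50.1, 48.2, 30.6 and 51.5 CPM in the 4 vehicle libraries and 74.6, 59.2, 85.5 and 73.8 CPM in the 4 tamoxifen libraries. The groups did not overlap, and the means were 45.1 ± 9.74 and 73.3 ± 10.8 CPM (SD, n = 4). HOXB13 rose by 0.63 on the log2 scale (SE 0.186, 95% interval 0.25 to 1.01), with an adjusted p of 0.0158 in edgeR's quasi-likelihood test over all genes tested. It was the 1 called of 3 tested members, where 17.8% of all tested genes were called in either direction and 20.7% had groups that did not overlap. DESeq2 did not call the rise (adjusted p = 0.0629), nor did the fit without an expression filter (0.0516) or the fit scaled to library totals (0.0687, a change of 0.50). Without vehicle replicate 3, the lowest of the group at 30.6 CPM, the change was 0.53 and the adjusted p in edgeR 0.0561, and without tamoxifen replicate 3 they were 0.56 and 0.0568.

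In the activating line HOXB13 was at 60.2, 43.96, 63.2 and 53.3 CPM under vehicle and at 27.6, 25.7, 35.2 and 34.2 CPM under tamoxifen. Again the groups did not overlap, and the means were 55.2 ± 8.53 and 30.7 ± 4.72 CPM (SD, n = 4). HOXB13 fell by 0.72 on the log2 scale (SE 0.219, 95% interval -1.18 to -0.27; edgeR adjusted p = 0.00964). HOXB13 and FOXA1 were the 2 called of 3 tested members, beside 44.8% of all tested genes called and 41.6% with groups that did not overlap, so the share of members called in this line is near that of all genes. The fall was called with each of the 8 libraries left out in turn, with a change between -0.82 and -0.65, and was not called by DESeq2 (adjusted p = 0.0535).

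The scaling sets the size of a fall in the activating line. With library totals in place of TMM factors the median tested gene was at -0.54 instead of -0.09, and HOXB13 was at -1.17. With factors computed on genes without an overlapping gene on the other strand, the median was 0.08 and HOXB13 was at -0.55 (edgeR adjusted p = 0.0471). Relative to the median gene HOXB13 was at -0.63 and FOXA1 at -0.65 with TMM factors. A change of scaling moves all genes nearly alike and so leaves these relative values in place by construction. In the fit without an expression filter, over another set of genes, they were -0.42 and -0.44. The TMM factors themselves were 0.795 to 0.900 in the activating tamoxifen libraries and 0.934 to 1.13 in the activating vehicle libraries.

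In the parental and neutral lines no member was called. HOXB13 was at 92.3, 50.7, 47.9 and 49.9 CPM in the parental vehicle libraries and at 65.3, 57.1, 57.4 and 51.0 under tamoxifen, which overlap. The change was -0.08 (SE 0.227, 95% interval -0.55 to 0.38; edgeR adjusted p = 0.962), and it was 0.19 without vehicle replicate 1, the library at 92.3 CPM. In the parental line 0% of the 3985 tested genes were called by edgeR and 3.76% had groups that did not overlap. An unadjusted p under 0.05 was found for 306 genes, and DESeq2 also called 0. In the neutral line the values were 58.0, 45.5, 96.5 and 78.7 CPM under vehicle and 44.7, 42.6, 49.5 and 67.7 CPM under tamoxifen. HOXB13 was at -0.47 there (SE 0.221, 95% interval -0.93 to -0.004; edgeR adjusted p = 0.289), beside 4.72% of all genes called and 10.9% with groups that did not overlap.

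The responses of HOXB13 were compared as interactions over 16 libraries. The activating response was lower than the repressive response by 1.36 on the log2 scale (difference -1.36, SE 0.282, 95% interval -1.94 to -0.79; edgeR adjusted p = 0.00018). HOXB13 was the 1 member called of 3, beside 35.9% of all tested genes. This difference was called under every alternative tried, DESeq2 included, and with each of the 16 libraries left out, with adjusted p-values from 1.5e-05 to 0.000998. The repressive response exceeded the neutral response by 1.10 (SE 0.290, 95% interval 0.51 to 1.69; edgeR adjusted p = 0.0274), where 3.39% of all tested genes were called. It was also called by DESeq2 and under the other processing alternatives, but leaving out any of 7 single libraries raised its adjusted p above 0.05, to at most 0.0863, without neutral vehicle replicate 3. The 7 were neutral vehicle replicates 3 and 4, neutral tamoxifen replicates 1, 2 and 3, repressive vehicle replicate 3 and repressive tamoxifen replicate 3, and the difference without each stayed between 0.92 and 1.06. The activating and neutral responses of HOXB13 differed by -0.29 (SE 0.319, 95% interval -0.94 to 0.36; edgeR adjusted p = 0.53), with no member called beside 33.4% of all tested genes. Ordered by mean, HOXB13 ran from 30.7 CPM in activating tamoxifen and 45.1 in repressive vehicle up to 69.7 in neutral vehicle and 73.3 in repressive tamoxifen, and the step between the lowest pair was the only one larger than both SDs of its neighbours.

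**Figure D2:**
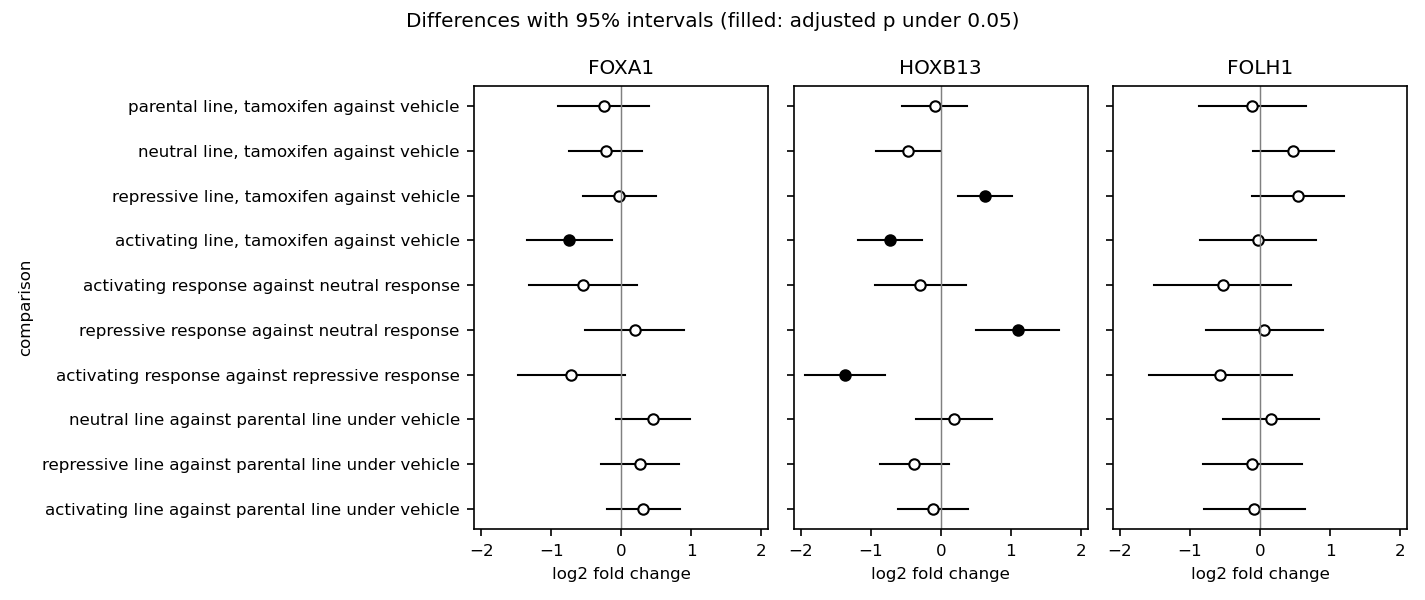
Log2 fold changes of FOXA1, HOXB13 and FOLH1 in the 10 comparisons, with 95% intervals; filled points passed an adjusted p of 0.05 in edgeR's test. HOXB13 was called in 4 comparisons, with its largest difference, -1.36, between the activating and repressive responses, and FOXA1 in 1.

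PRAC2, the nearest gene to HOXB13 on the other strand, ends 4 bases before the annotated 3′ end of HOXB13 begins (chr17:46800547-46802120, plus strand). It is a small prostate and colon transcript of little known function. PRAC2 held a mean of 2286 counts per library against 37.4 for HOXB13, while PRAC1, which lies beyond it on the strand of HOXB13, had 0 to 4. PRAC2 was at 2830 to 3420 CPM under vehicle and 4135 to 4657 CPM under tamoxifen in the repressive line, and at 3045 to 3319 and 1414 to 1754 CPM in the activating line. PRAC2 rose by 0.47 in the repressive line (SE 0.0566, edgeR adjusted p = 3.3e-07) and fell by 0.94 in the activating line (SE 0.0682, edgeR adjusted p = 5.3e-11), the directions seen for HOXB13. In the neutral line PRAC2 rose by 0.26 (SE 0.0532, edgeR adjusted p = 0.00655), where HOXB13 was at -0.47 and not called, and this PRAC2 call was lost with library totals (0.13, adjusted p = 0.626). The activating response of PRAC2 was below its repressive response by 1.42 (difference -1.42, edgeR adjusted p = 8.8e-16), as for HOXB13. The other interactions of PRAC2 and HOXB13 were called differently. PRAC2 was at -1.23 for the activating against the neutral response (edgeR adjusted p = 4.1e-14), where HOXB13 was not called at -0.29, and at 0.21 for the repressive against the neutral response (edgeR adjusted p = 0.166), where HOXB13 was called at 1.10. Whether reads of one of these genes were counted to the other was not tested.

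**Figure D3:**
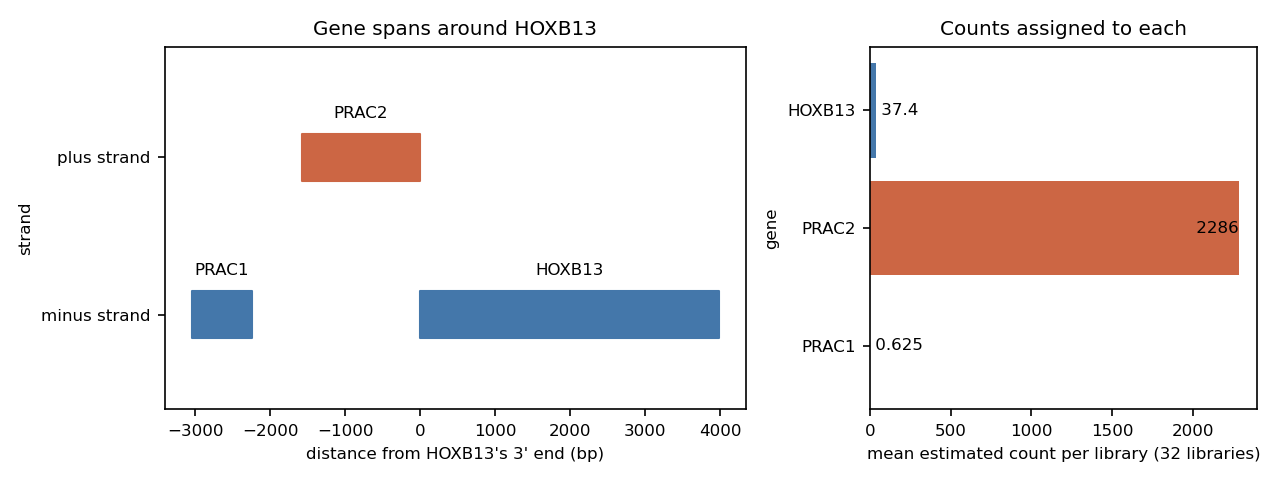
Left, spans of PRAC1, PRAC2 and HOXB13 drawn to scale by distance from the 3′ end of HOXB13, with the strand on the y axis; right, the mean estimated count per library over 32 libraries. PRAC2 carried 2286 counts and HOXB13 37.4.

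FOXA1 was called in a single comparison, the fall under tamoxifen in the activating line. Its level there was 27.5, 25.3, 30.0 and 24.2 CPM under vehicle, from 26, 19, 19 and 15 counts, and 11.0, 18.4, 16.6 and 12.6 CPM under tamoxifen, from 6, 10, 8 and 7 counts. The groups did not overlap, and the means were 26.8 ± 2.55 and 14.6 ± 3.41 CPM (SD, n = 4). FOXA1 fell by 0.75 on the log2 scale (change -0.745, SE 0.294, 95% interval -1.35 to -0.14; edgeR adjusted p = 0.0435). The direction held under every alternative, and the call did not: DESeq2 gave an adjusted p of 0.175, DESeq2's size factors in edgeR 0.0516, no filter 0.224, TTC6 counts added to FOXA1 0.0586 (change -0.66) and scaling on genes without opposite-strand overlap 0.131 (change -0.57), while library totals gave 0.00209 with a change of -1.19. Leaving out 1 library took the edgeR call away for 6 of the 8 (vehicle replicates 1, 2 and 3, tamoxifen replicates 1, 3 and 4), with changes between -0.82 and -0.64.

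In the other lines the intervals of FOXA1 spanned 0. Parental FOXA1 was at 19.6 to 22.8 CPM under vehicle and 11.5 to 27.7 CPM under tamoxifen, with a change of -0.25 (95% interval -0.91 to 0.40). Neutral FOXA1 was at 24.7 to 34.9 and 20.5 to 36.2 CPM, with a change of -0.22 (-0.74 to 0.29), and repressive FOXA1 at 21.1 to 32.5 and 22.6 to 29.0 CPM, with a change of -0.03 (-0.55 to 0.49). The fall in the activating line was not shown to differ from these. The activating response differed from the neutral response by -0.55 (95% interval -1.33 to 0.22; edgeR adjusted p = 0.29) and from the repressive response by -0.72 (-1.48 to 0.05; edgeR adjusted p = 0.142), the latter reaching -1.03 and an adjusted p of 0.0302 with library totals. The repressive and neutral responses differed by 0.19 (-0.52 to 0.90; edgeR adjusted p = 0.898). Ordered by mean, FOXA1 ran from 14.6 CPM in activating tamoxifen through 18.8 ± 7.26 in parental tamoxifen to 30.3 ± 5.15 in neutral vehicle, and the means of neighbours in that order differed by less than the larger of their SDs.

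TTC6 was at or near the counting floor everywhere. Its counts were 0 to 6 per library, and 0 in 8 of the 32. A count of 0 allows up to 3 counts, and 25 of the 32 libraries were at 3 counts or fewer. In the repressive line TTC6 had 3, 4, 3 and 3 counts under vehicle and 2, 0, 0 and 1 under tamoxifen, and the groups did not overlap. That was so for 20.7% of the genes tested in that line, a set without TTC6, which did not pass the expression filter. The fit without an expression filter gave -1.95 (SE 0.925, edgeR adjusted p = 0.419) there and 0.28, 0.46 and -0.02 in the parental, neutral and activating lines, none called. The unadjusted p in the repressive line was 0.0352.

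FOLH1 was called in no comparison. In the neutral line it was at 18.5, 22.11, 12.1 and 12.9 CPM under vehicle and 19.1, 22.2, 25.5 and 26.8 CPM under tamoxifen. The groups overlapped, and the change was 0.48 (SE 0.278, 95% interval -0.10 to 1.06; edgeR adjusted p = 0.416). In the repressive line it was at 15.3, 12.0, 9.57 and 15.3 CPM under vehicle and 18.0, 22.6, 26.0 and 13.6 CPM under tamoxifen, with a change of 0.54 (SE 0.322, 95% interval -0.12 to 1.20; edgeR adjusted p = 0.276). The activating line gave 16.9, 12.0, 15.8 and 8.08 CPM under vehicle and 12.9, 11.0, 4.14 and 19.8 CPM under tamoxifen, the widest spread of its 8 groups. The change there was -0.02 (95% interval -0.86 to 0.81), wide on both sides of 0. In the parental line the change was -0.11 (-0.88 to 0.65). The means of FOLH1 ran from 12.0 CPM in activating tamoxifen to 23.4 CPM in neutral tamoxifen, in steps smaller than the larger SD of each neighbouring pair. The FOLH1 responses did not differ past the threshold in any pair of construct lines, with differences of -0.53 (-1.51 to 0.44) for activating against neutral, 0.06 (-0.78 to 0.89) for repressive against neutral and -0.57 (-1.59 to 0.46) for activating against repressive. FOLH1B, a near-identical copy of FOLH1, had 0 or 1 count in every library, and a fractional split between the copies was seen in 1 library, neutral vehicle replicate 1, at 14.7 for FOLH1 and 1.29 for FOLH1B.

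Without tamoxifen no member differed past the threshold between a construct line and the parental line, beside 9.74% of all tested genes in the neutral line, 10.8% in the repressive line and 8.08% in the activating line. FOXA1 was higher in every neutral and activating vehicle library than in any parental vehicle library: the parental values were 22.08, 19.6, 21.9 and 22.8 CPM, the lowest neutral value 24.7 and the lowest activating value 24.2 CPM. The share of all tested genes whose groups did not overlap was 15.5% for the neutral line, 16.8% for the repressive line and 15.4% for the activating line. The FOXA1 differences were 0.45 in the neutral line (95% interval -0.08 to 0.97; edgeR adjusted p = 0.324), 0.27 in the repressive line (-0.29 to 0.82; 0.605) and 0.31 in the activating line (-0.21 to 0.83; 0.511). HOXB13 differed by 0.19 (-0.36 to 0.74), -0.38 (-0.87 to 0.12) and -0.11 (-0.62 to 0.39), and FOLH1 by 0.16 (-0.53 to 0.84), -0.11 (-0.82 to 0.60) and -0.09 (-0.81 to 0.64). The last of the HOXB13 differences was 0.19 without parental vehicle replicate 1.

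**Figure D4:**
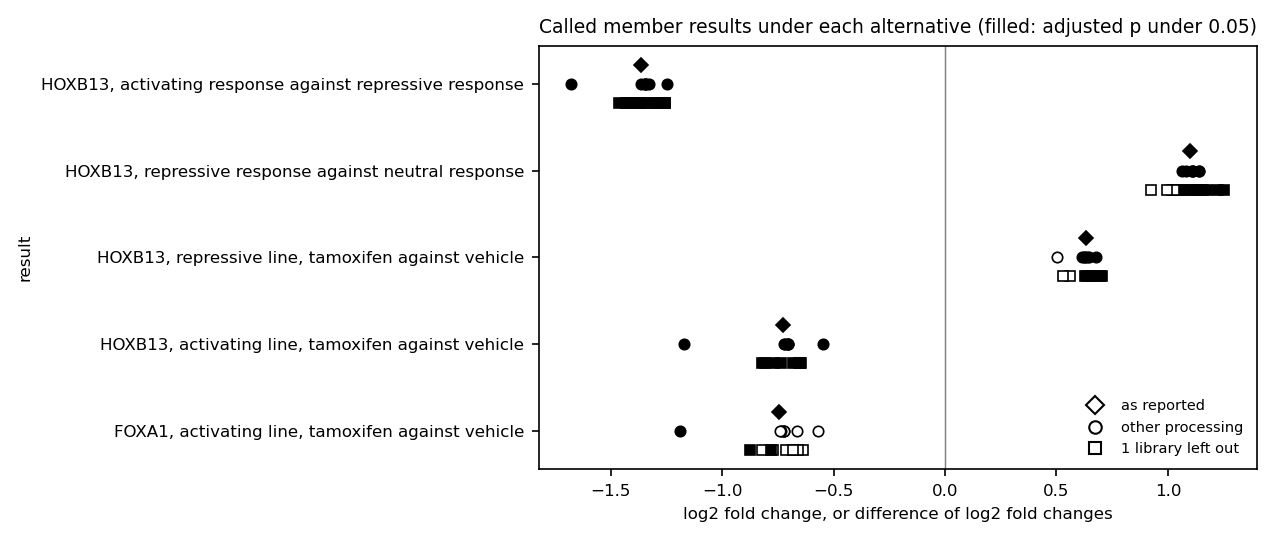
Log2 fold change, or difference of log2 fold changes, for the 5 called member results (y axis) as reported (diamonds), under other processing (circles) and with 1 library left out (squares); filled symbols passed an adjusted p of 0.05. The difference of HOXB13 between the activating and repressive responses stayed filled throughout, and FOXA1 was filled in few settings.

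Related genes were read from 4 lists of 59 genes, of which 10 passed the filter. Over those 10, tamoxifen changed 0 genes in the parental line and raised 2 in the neutral line. It raised 2 and lowered 1 under the repressive MACC, and raised 3 and lowered 6 under the activating MACC. The median change over the 10 in the activating line was -0.74, beside -0.09 over all tested genes, and -0.05 beside 0.005 in the repressive line. These are counts over few genes, and the shares called among all tested genes were 4.72% in the neutral, 17.8% in the repressive and 44.8% in the activating line.

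Of 12 luminal transcription factors 4 were tested. ELF3, an epithelial ETS factor, rose by 0.59 in the neutral line (SE 0.117) and 0.97 in the repressive line (SE 0.114), and it fell by 1.98 in the activating line (SE 0.214, edgeR adjusted p = 5.8e-08), with 23.9 to 39.3 CPM under tamoxifen against 90.5 to 155 CPM under vehicle there. The neutral call was lost with library totals (0.44, edgeR adjusted p = 0.116). In the parental line, which has no construct, ELF3 was at 0.44 with groups that did not overlap (edgeR adjusted p = 0.425), and the repressive and neutral responses of ELF3 differed by 0.38 (edgeR adjusted p = 0.25). GRHL2, a grainyhead factor of epithelial identity, rose by 2.74 in the activating line (SE 0.258, edgeR adjusted p = 6.6e-09), from 12.0 to 28.5 CPM up to 80.7 to 136 CPM. Under vehicle GRHL2 was lower than in the parental line by a log2 difference of -1.15 in both the activating line (edgeR adjusted p = 0.023) and the neutral line (edgeR adjusted p = 0.00515), with means of 16.5 CPM in the activating, 17.9 in the neutral and 38.5 in the parental line. ETV1, an ETS factor, rose by 0.996 in the activating line (SE 0.354, edgeR adjusted p = 0.0254), from 5 to 9 counts up to 8 to 13. This call was lost with DESeq2 (adjusted p = 0.0884), with no filter (0.095) and with library totals (0.195, a change of 0.55). The activating response of ETV1 was not shown to differ from the neutral response (0.54, edgeR adjusted p = 0.513) or the repressive response (1.16, 0.141). GATA2, a zinc finger factor, was called in no tamoxifen comparison of a single line. ELF3 and GRHL2 overlap exons of a gene on the other strand, and whether reads of that gene are among their counts was not tested, while ETV1 has no such overlap.

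Of 21 partners and relatives of FOXA and HOXB13 only PRAC2 and NCOR1 were tested. NCOR1, a corepressor of nuclear receptors, rose by 1.26 in the activating line (SE 0.187, edgeR adjusted p = 6.2e-06), and its exons overlap genes on the other strand. FOXA2, FOXA3 and HOXD13 had no count in any library, HOXA13 had at most 1 and HOXC13 at most 6. Of the HOXB genes in this list, HOXB9 had at most 7 and HOXB3 at most 5, and the others at most 1.

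Of 14 folate and glutamate peptidase genes 3 were tested, and all 3 fell in the activating line, where 910 of the 3985 tested genes were called lower. SHMT2, the mitochondrial serine hydroxymethyltransferase, fell by 1.87 (SE 0.332, edgeR adjusted p = 6.5e-05), the reduced folate carrier SLC19A1 fell by 1.62 (SE 0.177, edgeR adjusted p = 7.5e-08) and the proton-coupled folate transporter SLC46A1 fell by 0.53 (SE 0.0686, edgeR adjusted p = 9.1e-07). All 3 overlap exons on the other strand. Under vehicle SHMT2 was above the parental line by 0.85 in the activating line (edgeR adjusted p = 0.0475) and by 1.26 in the neutral line (0.00287). The SHMT2 means under vehicle were 30.4 CPM in the activating, 41.9 in the neutral and 16.9 in the parental line. Under tamoxifen in the activating line the mean of SHMT2 was 7.60 CPM, from 3, 4, 5 and 4 counts. Of 12 prostate surface antigens only SLC45A3, the gene of prostein, was tested. SLC45A3 fell by 0.90 in the repressive line (SE 0.279, edgeR adjusted p = 0.0233) and by 1.68 in the activating line (SE 0.353, edgeR adjusted p = 0.000425). The fall in the activating line was from 13 to 37 counts down to 3 to 8. The groups did not overlap in either line, and the repressive fall was not called by DESeq2 (adjusted p = 0.113) or without a filter (0.103). The neutral line was at -0.43, and the repressive and neutral responses of SLC45A3 differed by -0.47 (edgeR adjusted p = 0.658). The activating and neutral responses differed by -1.29 (edgeR adjusted p = 0.0262). That call was lost with DESeq2 (0.0638), with no filter (0.055) and with scaling on genes without opposite-strand overlap (0.0552). The activating response of SLC45A3 was not shown to differ from its repressive response (-0.787, edgeR adjusted p = 0.183). Under vehicle SLC45A3 was above the parental line by 0.91 in the neutral line (edgeR adjusted p = 0.0336). In the repressive and activating lines SLC45A3 was above by 0.72 and 0.81, not called. The differences of SHMT2, SLC45A3 and GRHL2 from the parental line under vehicle are given for the main fit only, without the alternatives.

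**Figure D5:**
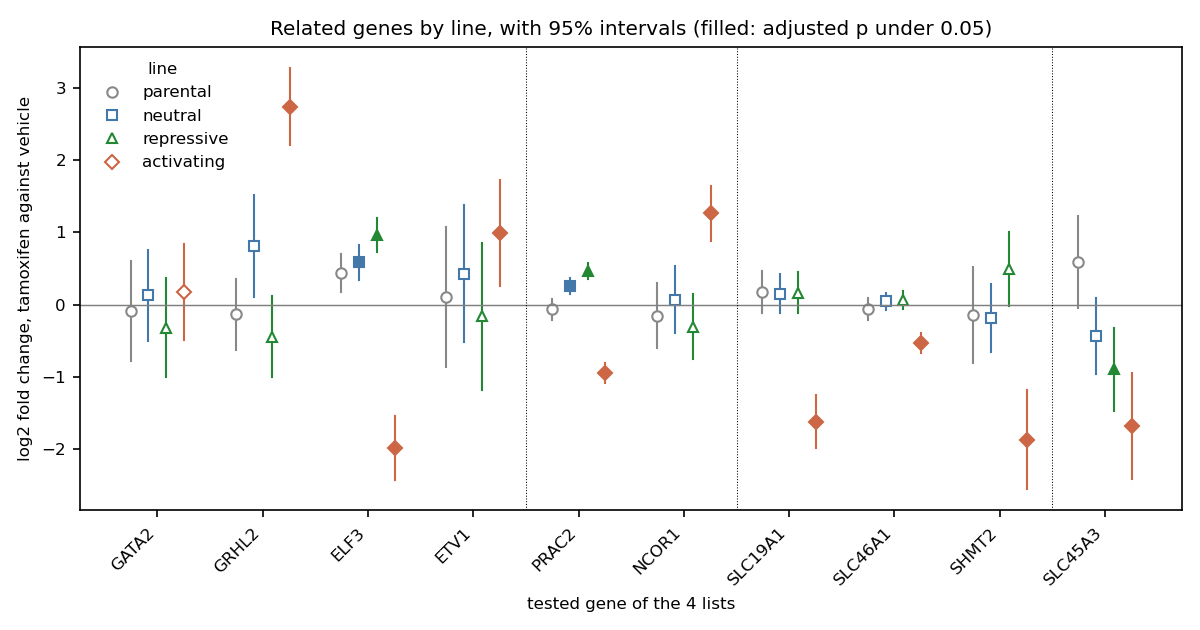
Log2 fold change under tamoxifen for the 10 tested genes of the 4 lists, by line (symbol and colour), with 95% intervals; dotted lines separate the lists and filled symbols passed an adjusted p of 0.05. In the activating line 9 of 10 were called, from -1.98 for ELF3 to 2.74 for GRHL2.

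The genes whose log2 CPM followed each member most closely over the 32 libraries differed among the 3 members tested. For HOXB13 they were RP11-440L14.1 (Pearson r = 0.84), KDM4A-AS1 (0.83) and ATG10 (0.822), each of which overlaps exons of a gene on the other strand. For FOXA1 they were TMEM210 (0.729), MAFK (0.725) and RP11-810K23.10 (0.719), and for FOLH1 LINC00689 (0.691), BNIP3 (0.679) and RP5-1165K10.2 (0.676). MAFK, LINC00689 and RP5-1165K10.2 also have such an overlap, and TMEM210, RP11-810K23.10 and BNIP3 do not. HOXB13 and FOXA1 followed each other with r = 0.46, HOXB13 and FOLH1 with 0.279 and FOXA1 and FOLH1 with 0.066. PRAC2 gave 0.698 with HOXB13, and also 0.554 with FOXA1 and 0.532 with FOLH1, which lie on other chromosomes. Among all genes ordered by r, PRAC2 ranked 69 for HOXB13, 208 for FOXA1 and 61 for FOLH1. These are descriptions over 32 libraries that share 8 groups, and no test was made.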

How the data were processed

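RNA was measured in 32 libraries of LNCaP cells, 4 for each of 4 lines under tamoxifen or vehicle, and each was assigned to its group from its label. The authors ran nf-core/rnaseq against GRCh37, with Salmon 1.9.0 for quantification, and deposited estimated counts per gene, not normalized. The annotation release and strand setting are not given in the sources used here. Estimates were rounded to whole counts. The filter was edgeR's filterByExpr with the 8 groups, libraries were scaled by TMM, and edgeR 4.0.16 (R 4.3.3) gave quasi-likelihood tests with Benjamini-Hochberg adjustment over the 3985 tested genes at 0.05. Each line was fitted over its 8 libraries, each interaction over 16, and each line was compared with the parental line over 8 vehicle libraries. The SE of a log2 change is its size over the root of the F statistic. CPM is edgeR's count per 1000000 of TMM-scaled library size. Log2 CPM for correlations used a prior count of 2, and a count of 0 was taken to allow 3 counts. The fits were tested on simulated data. Alternatives were DESeq2 1.42.0, its size factors, no filter, all 32 libraries, a replicate block, summed strands and leaving out each library. Scaling to library totals, or on genes without opposite-strand overlap, was added after seeing the data. Positions are those of GENCODE lifted to GRCh37, which held 96.1% of the genes listed.

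The members and lists were chosen with earlier results of these data known. The genes named are the 4 members, genes whose exons overlap a member on the other strand, the 3 most correlated with each tested member, the called genes of the 4 lists, and ESR1 and ZNF10 as label checks. PRAC1, MT-ND6, the uncalled list genes and the marker TP63 were named after their values were seen. Some listed genes are not reported here and are left out of the list counts.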

Additional observations from a re-analysis of the deposited data

Results flagged for a closer look

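In 3 cases a library stood apart from the other 3 of its group, by the gap to the nearest value relative to the range. FOXA1 was at 36.2 CPM (34 counts) in neutral tamoxifen replicate 1, the deepest library, with the next highest at 22.5 CPM. HOXB13 was at 92.3 CPM in parental vehicle replicate 1, with the next at 50.7 CPM, and at 30.6 CPM in repressive vehicle replicate 3, with the next at 48.2 CPM. These are 3 of 32 groups of 4 values, where chance gives about 5%.

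The response of HOXB13 to tamoxifen differed between lines when the difference itself was tested. It was higher by 1.10 in the repressive than in the neutral line (edgeR adjusted p = 0.0274), and the activating response differed from the repressive by -1.36 (edgeR adjusted p = 0.00018).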

How the results depend on the processing

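Over 30 member results, 479 of 528 alternative values kept their direction and their side of the threshold. Most of the 30 were not called in the main fit, and an uncalled result far from the threshold stays uncalled easily. All 25 values that lost a call belong to the results called in the main fit. FOXA1 in the activating line kept its call in 2 of 8 processing alternatives and 2 of 8 fits with a library left out. For FOXA1 in the activating line the call was lost with DESeq2's test (-0.73), DESeq2's size factors (-0.72), no filter (-0.72), both strands summed (-0.66) and scaling on genes without opposite-strand overlap (-0.57). HOXB13 lost its call in the activating line with DESeq2's test (-0.71), and in the repressive line with DESeq2's test (0.64), no filter (0.63) and library totals (0.50). Library totals added a call for FOXA1, activating against repressive response (-1.03). Directions turned for FOXA1 in the repressive line (0.009, scaling on genes without overlap), for its repressive against neutral response (-0.055, both strands summed) and for FOLH1 in the activating line (0.001 with no filter, 0.15 with that scaling). The cause was not tested. With 1 library left out, the range was -0.88 to -0.64 for FOXA1 in the activating line and -0.10 to 0.11 in the repressive line; for HOXB13 0.53 to 0.70 in the repressive line, -0.20 to 0.19 in the parental line, 0.92 to 1.25 for repressive against neutral response and -0.25 to 0.19 for the activating against the parental line; and for FOLH1 -0.39 to 0.045 in the parental line, -0.35 to 0.22 in the activating line, -0.11 to 0.21 for repressive against neutral response, and -0.012 to 0.28 and -0.28 to 0.027 for the neutral and activating against the parental line. The same replicate number did not pair libraries: 10 of 28 pairs of deviations correlated above 0.1 (-0.379 to 0.304) and 12 correlated best with their own number. A replicate block changed 1 member call, FOXA1 in the activating line (-0.74, adjusted p = 0.0501 in edgeR), and called 32 genes instead of 0 in the parental line, and 208, 686 and 90 instead of 388, 432 and 322 when the neutral, repressive and activating lines were each set against the parental line. Counts of called genes also moved with DESeq2 (454 instead of 709 in the repressive line, 273 instead of 432 for the repressive against the parental line), with no filter (24 instead of 0 in the parental line), with library totals (1 instead of 0 there, 58 instead of 135 for repressive against neutral response) and with all 32 libraries (542 instead of 322 for the activating against the parental line). With library totals the share of called genes that were higher went from 49.0% to 20.8% in the activating line, 55.3% to 16.5% in the neutral line and 43.9% to 20.3% in the repressive line, and with scaling on genes without overlap to 61.7% in the activating line. DESeq2 gave no adjusted p for 4 member values, which are not counted. At 2 to 72 counts per library for the tested members, counting noise limits each change.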
